A study of Mus musculus with 2 samples.

Results

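The mir-379 to mir-410 cluster is a run of microRNA (miRNA) hairpins on mouse chromosome 12, inside the imprinted Dlk1-Dio3 region. Part of it lies within the annotated noncoding gene Mirg. Its members were taken by position, as every GENCODE M21 gene of type miRNA on the plus strand that starts within a fixed window of 60 kb. The window held 39 of the 2202 annotated miRNA genes. They run from Mir379, which starts at position 109709060, to Mir3072, which ends at position 109747960 (assembly mm10), a span of 38.9 kb. The label names Mir410 as the end of the cluster, and by the rule Mir3072, which lies downstream of it, was also a member. The rule uses position, strand and gene type, and no measured value.

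MiRNAs are short RNAs that guide Argonaute proteins to messenger RNAs by base pairing, chiefly through the seed, bases 2 to 8 of the mature strand. The hairpins of such a cluster are cut one by one from long primary transcripts by Drosha and then by Dicer, which leaves a 5p and a 3p strand. The Dlk1-Dio3 region is imprinted, and its noncoding RNAs are transcribed from the chromosome inherited from the mother. In neurons the cluster is known as a target of the activity-dependent factor Mef2 and for miRNAs that act on dendrites and synapses, among them Mir134.

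Small RNA of 2 libraries was counted, both from hippocampus (labelled as a layer of it) of female B6CASTF1/J mice aged 36 days, the F1 hybrid of C57BL/6J and CAST/EiJ. No treatment is given, and both libraries form 1 group, replicates 1 and 2. The labels list 2 biosamples but a single donor, so whether 2 animals were used is unknown and part of the spread may be technical. Levels are sense reads per 1000000 sense reads on miRNA genes (CPM), and ± is the SD with n = 2. Counts are per hairpin gene, so neither the 2 strands of a hairpin nor the 2 parental alleles of the hybrid were told apart.

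Sense reads on miRNA genes numbered 2928141 in replicate 1 and 3644157 in replicate 2, where 10 reads are 3.42 and 2.74 CPM. Where a member had no reads, the data allow up to 3, or 1.02 and 0.823 CPM. Such limits and all intervals below cover counting error only, since reads are not independent molecules. Reads with several places in the genome, 38.9% and 45.8% of all, were not assigned to genes in the deposited counts. Summed levels of marker miRNAs were 22121 and 24402 CPM for neurons (7 genes), 17050 and 11722 for astrocytes (5), 5352 and 2536 for oligodendrocytes (3), 1589 and 1881 for microglia and leukocytes (5), 19436 and 15579 for vessels (3), 1176 and 340 for red blood cells (3) and 1146 and 2660 for choroid plexus and ciliated cells (4), in replicates 1 and 2. Markers of the same list could differ in direction. For vessels Mir126a was at 14516 and 8969 CPM, while Mir143 was at 4740 and 6401 and Mir145a at 180 and 209. For microglia and leukocytes Mir150 (814 and 1230), Mir142 (57.4 and 64.8) and Mir223 (0.34 and 6.31) were higher in replicate 2. Mir146 (674 and 545) and Mir155 (43.7 and 35.1) were lower there. For choroid plexus and ciliated cells Mir204 (592.5 and 2101), Mir34b (8.20 and 32.7) and Mir34c (421 and 446) were higher in replicate 2. Mir449a (124 and 80.4) was lower. For neurons Mir132 was at 12153 and 10636 CPM, while Mir137 (9112 and 12631), Mir153 (513 and 761) and Mir212 (337 and 373) went the other way. No marker was at 0 in both libraries. The genes of the neuronal miRNA miR-124, which has several copies, had few reads and were each lower in CPM in replicate 2. Mir124a-1 had 8 and 8 reads, Mir124a-2 had 4 and 0, and Mir124a-3 had 4 and 1. Reads with several places in the genome were not assigned, so these counts and the neuron sum may be too low. The part of differences in marker levels in the ratios between libraries below was not tested.

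RefSeq (GRCm38.p6) held 71 mature sequences for 38 of the 39 members, with none for Gm27379. It held only 1 strand for each of Mir376c, Mir487b, Mir539, Mir485 and Mir453, so shared seeds may be undercounted. The 71 sequences had 65 different seeds, and no mature sequence was identical to that of another gene. The strands below are shown because their seeds, in capitals, recur within the cluster, pair by pair.
mmu-miR-379-3p: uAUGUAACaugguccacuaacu
mmu-miR-411-3p: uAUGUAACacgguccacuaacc
mmu-miR-379-5p: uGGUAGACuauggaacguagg
mmu-miR-1193-5p: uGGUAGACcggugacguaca
mmu-miR-376c-5p: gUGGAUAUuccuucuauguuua
mmu-miR-376b-5p: gUGGAUAUuccuucuaugguua
mmu-miR-494-5p: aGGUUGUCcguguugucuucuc
mmu-miR-410-5p: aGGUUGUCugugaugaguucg
mmu-miR-1197-5p: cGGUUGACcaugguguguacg
mmu-miR-758-5p: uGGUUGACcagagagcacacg
mmu-miR-453: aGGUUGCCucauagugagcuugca
mmu-miR-496a-5p: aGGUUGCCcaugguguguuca

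Of the seeds, 6 were shared by a pair of members and 11 by a member and a miRNA gene outside the cluster. The letters GGUUG stood in the 5′ part of the hairpin, divided at its middle, in 9 of 39 members (23.1%) and in 4.90% of all 2202 annotated hairpins, members included. The reverse complement of GGUUG was found in 1 member and in 5.45% of all hairpins, over the whole hairpin. The letters GGUCCAC stood in the 3′ part in 5 members (12.8%) and in 0.272% of all hairpins, and their reverse complement in 0 members and 0.817% of all. Both strings were picked after the sequences had been read, so the shares are descriptions. In mature strands GGUCCAC, in capitals here, began at base 11 in 4 members and at base 8 in Mir412.
mmu-miR-379-3p: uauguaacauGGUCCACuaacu
mmu-miR-411-3p: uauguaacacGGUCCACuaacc
mmu-miR-380-3p: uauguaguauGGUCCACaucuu
mmu-miR-758-3p: uuugugaccuGGUCCACua
mmu-miR-412-3p: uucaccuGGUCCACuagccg

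The strands of the most abundant member and of a pair studied in neurons are given next, again with the seed in capitals. For Mir485 RefSeq held the 3p strand alone.
mmu-miR-382-5p: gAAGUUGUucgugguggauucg
mmu-miR-382-3p: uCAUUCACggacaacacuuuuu
mmu-miR-134-5p: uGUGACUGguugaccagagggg
mmu-miR-134-3p: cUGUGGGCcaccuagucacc
mmu-miR-485-3p: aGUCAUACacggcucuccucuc
The hairpin of Mir382 lies at chr12:109733771-109733846, that of Mir134 at chr12:109734139-109734209 and that of Mir485 at chr12:109734902-109734974.

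Nearly the whole cluster was found in the hippocampus. Of 39 members, 34 (87.2%) had at least 10 reads in each library, against 17.1% of all annotated miRNA genes. The cluster held 5.43% of sense miRNA reads in replicate 1 and 5.28% in replicate 2, or 5.36% ± 0.105. The exact (Clopper-Pearson) 95% intervals ran from 5.40% to 5.46% and from 5.26% to 5.30%. The summed level therefore differed little between the libraries, at 0.973 times in replicate 2 (exact 95% interval 0.966 to 0.979). In bulk tissue a lower level from fewer cells of a type cannot be told apart from less RNA per cell. The mean share was 4.02% without 6 members that have 20 or more consecutive bases in common with another annotated hairpin, sought within each side of the hairpin. These are Mir411 and Mir758, Mir376c and Mir376b, Mir487b (with Mir376b) and Mir299a (with Mir299b opposite). Reads from bases in common may have gone unassigned, so the levels of these 6 are uncertain.

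Mir382 led the cluster, with 12764 CPM in replicate 1 and 9121 CPM in replicate 2 (10942 ± 2576), and held 23.5% and 17.3% of the cluster's reads. It was the most abundant member in both libraries and stood in rank 13 and 21 among all miRNA genes. Mir411 followed at 7529 and 7113 CPM, Mir379 at 7339 and 6647 CPM, and Mir541 at 7329 and 6654 CPM. The means of these 3 (7321 ± 294, 6993 ± 489 and 6991 ± 478) differed by less than the SD of Mir379 or of Mir541, and Mir379 and Mir541 changed places between the libraries. Mir487b reached 4143 and 6203 CPM (5173 ± 1457) and was below all 4 in both libraries. The first 5 members held 72.0% and 67.7% of the cluster's reads and the first 10 held 86.0% and 85.2%.

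**Figure D1:**
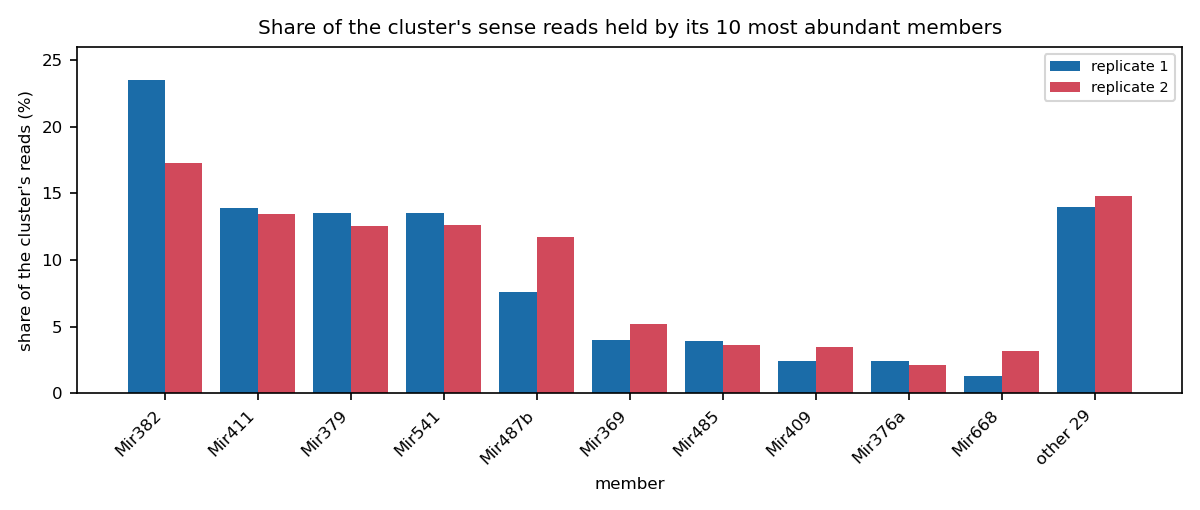
Bars give the share of the cluster's sense reads, in percent, held by each of the 10 most abundant members and by the other 29 together, in replicate 1 (blue) and replicate 2 (red). Mir382 is highest in both, at 23.5% and 17.3%.

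Below these leaders the levels formed a long tail. Of the detected members, 5 had a mean over 5000 CPM, 5 lay from 1000 to 5000, 18 from 100 to 1000 and 6 under 100. Mir369, whose 3p strand is known for promoting translation of TNF messenger RNA in resting cells, was at 2152 and 2730 CPM. Mir409 was at 1325 and 1825 CPM, Mir376a at 1297 and 1108 CPM, and Mir668 at 712 and 1669 CPM. The lowest detected member was Mir544, with 24 and 26 reads (8.20 and 7.13 CPM), which placed it 1427-fold below Mir382 by mean CPM. The order of members was alike in both libraries (Spearman's rho 0.974 over the 34 detected members, which share a library and a primary transcript region, given as a description).

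Detection failed for 5 members. Mir654 and Mir453 had 0 reads in both libraries, which allows up to 1.02 and 0.823 CPM. Mir1197 had 1 read and 0, and Gm27379 had 0 and 2. Mir758 had 6 and 11 reads, which is under the minimum in replicate 1 alone. It is the member with 20 bases in common with Mir411. Their neighbours varied in level. Mir654 lies between Mir376c (1571 and 2276 reads) and Mir376b (596 and 495), Mir453 between Mir485 (6219 and 7021) and Mir154 (3092 and 3296), and Gm27379 between Mir539 (319 and 488) and the low Mir544.

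**Figure D2:**
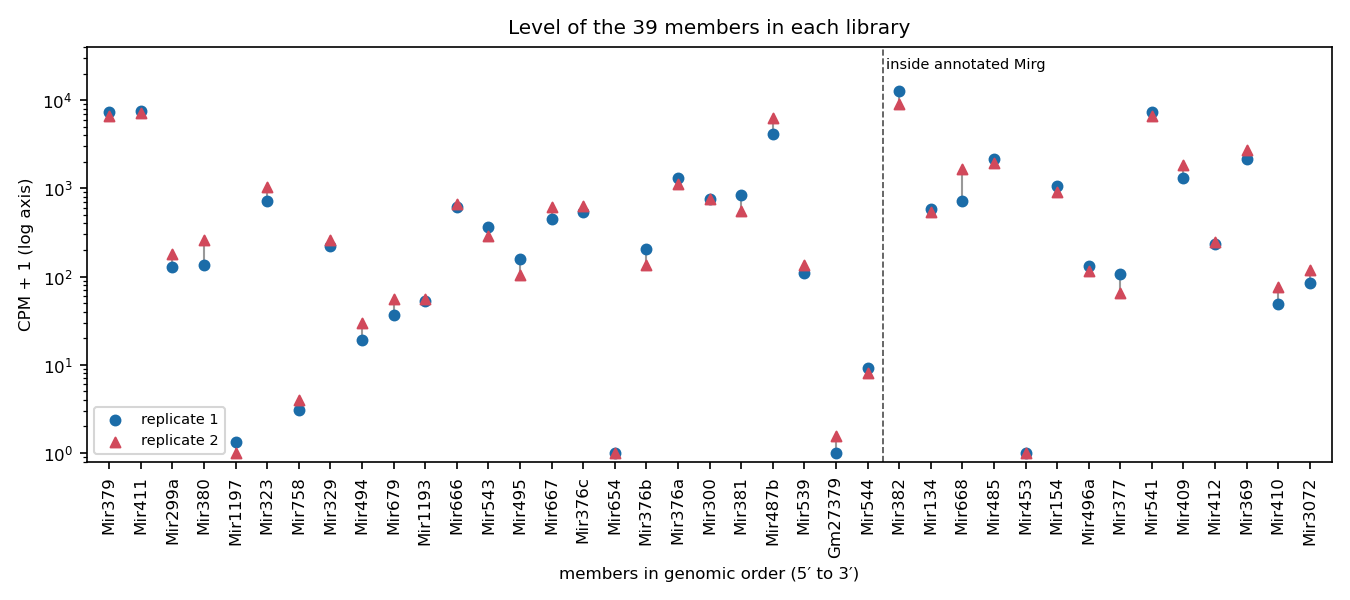
Points give the level of each of the 39 members in genomic order, as CPM + 1 on a log axis, in replicate 1 (circles) and replicate 2 (triangles), and a member with 0 reads sits at 1. The dashed line marks where the annotated Mirg span begins. High and low members are mixed along the cluster, and Mir382 is highest in both libraries.

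Levels showed little relation to position. Spearman's rho of mean CPM with order along the chromosome was 0.03 over the 34 detected members, and it was 0.06 with GC content, -0.04 with hairpin length and 0.06 with the predicted folding energy per base. These are descriptions across genes of the same libraries. Neighbouring detected members differed by a median of 4.13-fold (33 pairs), and all pairs by 5.88-fold (561 pairs). The widest step between neighbours ran from Mir544 to Mir382. Hairpins are packed closely, with a median of 556 bases between neighbours and 8 of 38 gaps under 200 bases. Closeness did not bring equal levels, as Mir369 was 45.3-fold and 36.2-fold above the adjacent Mir410 in replicates 1 and 2.

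The Mirg gene model in GENCODE covers chr12:109729764-109749460 and thus 14 of the 39 members, from Mir382 on, and 13 of these were detected. The 25 members before it lie in no annotated host gene, and 21 were detected. The shares of miRNA reads were alike, 2.86% and 2.60% inside Mirg and 2.57% and 2.68% before it, in replicates 1 and 2. Inside Mirg, 4 hairpins lie wholly in an exon of at least 1 transcript (Mir134, Mir485, Mir377 and Mir410), 5 lie across an exon edge and 5 lie in introns. Mir382, Mir668 and Mir369 overlap an exon by only 2, 1 and 1 bases. Levels of exonic members ranged from 61.5 CPM for Mir410 to 2025 CPM for Mir485, and those of detected intronic members from 122 CPM for Mir496a to 6991 CPM for Mir541.

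Of the 39 members, 5 have an annotated miRNA gene on the opposite strand, namely Mir299a, Mir380, Mir376a, Mir539 and Mir409. Their sense reads, 8766 in replicate 1 and 12767 in replicate 2, could be assigned only because strand was used. In the counts without strand Mir380, Mir376a, Mir539 and Mir409 had 0 reads in both libraries, and Mir299a had 4 and 0. The opposite genes had 0 sense reads in both libraries. Antisense reads over all 39 members numbered 0 and 1.

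The 4 seed pairs with both members detected ranged from near equal levels to a gap of over 100-fold. Mir379 and Mir411, whose 3p seeds are the same, were near equal, with Mir411 1.03-fold and 1.07-fold above Mir379 in replicates 1 and 2. Mir1193 has the 5p seed of Mir379 and was at 51.2 and 54.1 CPM, so that Mir379 was 143-fold and 123-fold higher. Mir376c (537 and 625 CPM) was above Mir376b (204 and 136 CPM), which shares its 5p seed, by 2.64-fold and 4.60-fold. Hairpins of the mir-376 group are known for adenosine-to-inosine editing in brain, and edited reads were not looked at here. Mir494 (18.1 and 28.8 CPM) and Mir410 (47.5 and 75.5 CPM), which share a 5p seed, were both low. The other 2 pairs had 0 and 1 detected members. Since strands were not told apart, these are levels of hairpins that can yield the seed, not of strands that carry it.

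Of the 11 seeds shared with genes outside the cluster, 6 belonged to outside genes with 0 reads in both libraries. The 3p seed of Mir329 (222 and 259 CPM) also occurs in Mir362, at 28.4 and 24.7 CPM. The 3p seed of Mir410 occurs in the mir-344 genes Mir344d-1, Mir344d-2, Mir344d-3 and Mir344e, which together had 1 read in each library. The Mir344d genes share the mature name miR-344d-3p, and reads with several places in the genome were not assigned, so this count may be too low. Outside genes were higher in 3 cases. Mir370, with a 5p seed found in the 3p strand of Mir1193, was at 765 and 2239 CPM, Mir672, which shares the 5p seed of Mir377, at 612 and 579 CPM, and Mir1983, which shares the 3p seed of Mir412, at 933 and 900 CPM.

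A list of 18 hairpins of the cluster, taken here as the mir-154 family and including Mir376a, Mir376b and Mir376c, was detected in full. It held 62.2% and 61.2% of the cluster's reads, from 23.5 CPM for Mir494 to 10942 CPM for Mir382 by mean. Mir154 itself, for which the family is named, was at 1056 and 904 CPM. Over all 741 pairs of members the median identity of hairpins was 49.5% in global alignments, and 11 pairs reached 70%, led by Mir376c and Mir376b at 80.7%. Mir300 and Mir381, at 73.8%, were the most alike pair of direct neighbours and stood at 751 and 753 CPM and at 842 and 557 CPM.

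Among members known from neurons, 7 were listed and all were detected. Mir134, which limits dendritic spine size through the kinase Limk1, was at 578 and 542 CPM (560 ± 25.6), in rank 17 of the cluster. Mir485, which acts on the synaptic vesicle protein SV2A, was at 2124 and 1927 CPM (2025 ± 139). Mir379, also listed, was at 7339 and 6647 CPM. Mir382, which is not on the list and ends 292 bases upstream of Mir134, was 22.1-fold and 16.8-fold above Mir134. Mir329 and Mir381, which like Mir134 are known to act in dendrite outgrowth, were at 222 and 259 CPM and at 842 and 557 CPM. Mir495, known to act on Bdnf messenger RNA, was at 155 and 103 CPM, and Mir543 was at 364 and 288 CPM.

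Between the libraries the members differed in detail. A two-sided exact binomial test on reads, with Benjamini-Hochberg adjustment over all 474 miRNA genes with a summed count of at least 10, called 28 of 35 tested members at 0.05, and 58.0% of all genes tested were called. Of the 28, 16 were higher in replicate 2 (45.7% of tested members, against 31.6% of all genes tested). The other 12 were higher in replicate 1 (34.3%, against 26.4% of all genes tested). The test compares 2 libraries, not conditions, and knows counting error only. Tested members had a median of 3573 summed reads and all tested genes 308, so smaller ratios could be called among members. Of the 35, 8 were called with at least 1.5-fold (22.9%, against 28.5% of all genes tested) and 1 with at least 2-fold (2.86%, against 16.9%). A called gene with 0 reads in 1 library was counted as past both folds, which applied to no member.

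Mir668 differed most, with 2084 reads in replicate 1 and 6083 in replicate 2. Its level in replicate 2 was 2.35-fold higher (exact 95% interval 2.23 to 2.47). Its neighbours on both sides stayed near 1, as Mir134 had a ratio of 0.937 (0.878 to 1.001) that was not called and Mir485 one of 0.907 (0.877 to 0.939). Mir380, with 393 and 942 reads, was 1.93-fold higher in replicate 2 (1.71 to 2.17). Also higher there were Mir494 with 53 and 105 reads (1.59-fold, 1.13 to 2.26), Mir410 with 139 and 275 (1.59-fold, 1.29 to 1.96) and Mir679 with 104 and 199 (1.54-fold, 1.21 to 1.97). Mir487b was just under the 1.5-fold limit, at 1.497 (1.46 to 1.53).

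Higher in replicate 1 by at least 1.5-fold were 3 members. Mir377 had 309 and 233 reads and was 1.65-fold higher in replicate 1 (exact 95% interval 1.39 to 1.97). Mir381 had 2466 and 2031 reads and was 1.51-fold higher (1.42 to 1.60). Mir495 had 455 and 377 reads and was 1.502-fold higher (1.31 to 1.73). Mir376b, with 596 and 495 reads, was just under the limit, while Mir376c, its closest relative, was 1.16-fold higher in replicate 2. Mir382 was 1.40-fold higher in replicate 1 (1.38 to 1.42). Of the 7 members listed for neurons, Mir379, Mir381, Mir485, Mir495 and Mir543 were called higher in replicate 1, Mir329 in replicate 2 (1.17-fold), and Mir134 was not called. Over all genes tested, 26.4% were called higher in replicate 1 and 31.6% in replicate 2, and the list's median log2 ratio was -0.14 against 0.04.

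**Figure D3:**
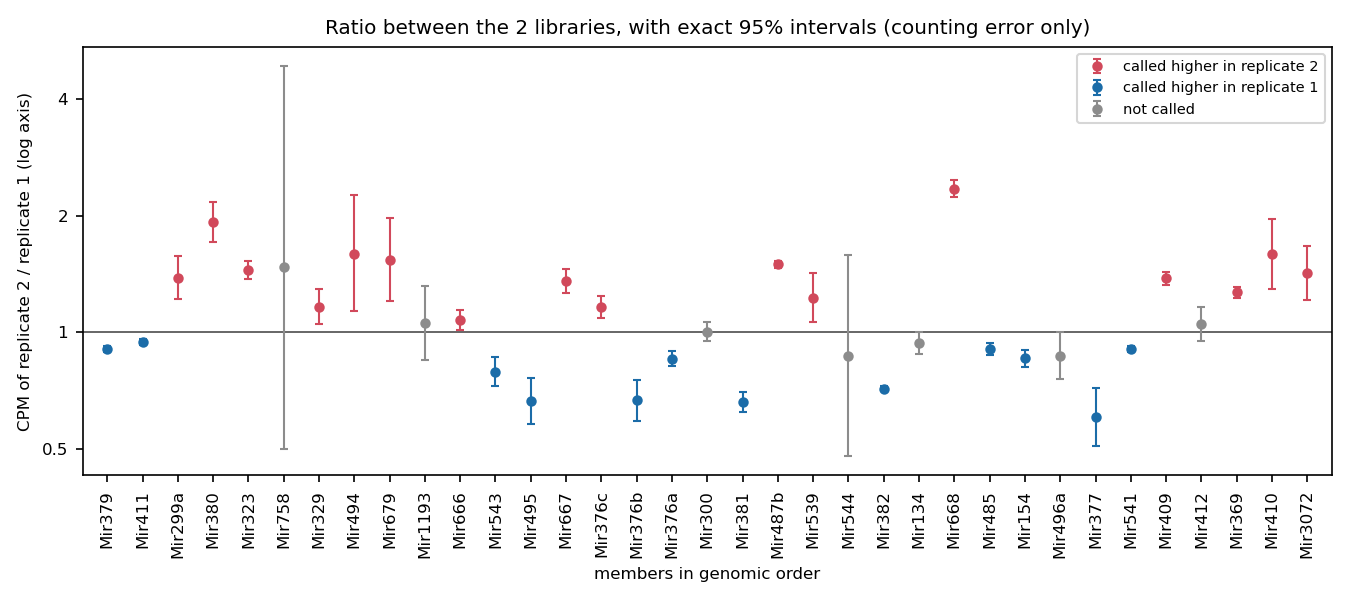
Points give the ratio of CPM in replicate 2 to replicate 1 on a log axis for the 35 tested members in genomic order, with exact 95% intervals that cover counting error only. Members above 1 (red, 16) and below 1 (blue, 12) that were called are mixed along the cluster, grey points were not called, and Mir668 is highest at 2.35.

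The median log2 ratio of replicate 2 to replicate 1 was 0.08 over the 35 members and 0.04 over all 474 genes tested. Among genes that averaged 50 or more reads per library, the SD of the log2 ratio was 0.47 over 33 members and 0.87 over 262 genes outside the cluster, a description with no test. Of these, 97.0% of members and 85.5% of the others lay within 2-fold. The median difference between the libraries, in either direction, was 1.268-fold for members and 1.265-fold for the others. Tested members had a median of 3573 summed reads and tested genes outside the cluster 226. Among the upstream genes described below, the SD was 0.46 over 5 antisense to Rtl1 and 0.58 over 10 elsewhere, with 100% and 90% within 2-fold. Neighbouring detected members differed in log2 ratio by a median of 0.39 and all pairs of them by 0.47. The log2 ratio had a Spearman's rho of 0.38 with GC content and -0.10 with position over the 34 detected members. The mir-154 family list had 8 members higher in replicate 2, 7 higher in replicate 1 and 3 not called, beside 31.6%, 26.4% and the remainder of all genes tested, with a median log2 ratio of 0.04.

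Upstream on the same strand lie 20 further miRNA genes of the region, within 160 kb before the window. Of these, 6 lie antisense to the Rtl1 gene, and they held 4.93% and 6.22% of reads (5.58% ± 0.914), close to the share of the 39 cluster members but mostly from Mir127, at 37656 and 46305 CPM. Their summed level was 1.26 times as high in replicate 2 (exact 95% interval 1.25 to 1.27), beside 0.973 times for the cluster. The other 14 held 1.66% and 1.41%, 0.848 times as much in replicate 2 (0.838 to 0.859), led by Mir770 at 10202 and 6404 CPM. That sum does not stand for each gene, as Mir370 was at 765 and 2239 CPM. Of the 11 tested, 4 were called higher in replicate 1 (36.4%, against 26.4% of all genes tested). Called higher in replicate 2 were 2 (18.2%, against 31.6%). The 3 ratios of summed levels compare 2 libraries, and a difference between the gene groups was not tested. Median levels of detected genes were 495 and 550 CPM in the cluster (34 genes), 1662 and 1754 CPM antisense to Rtl1 (5), 655 and 534 CPM for the other upstream genes (11), and 133 and 135 CPM over all 376 detected miRNA genes.

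**Figure D4:**
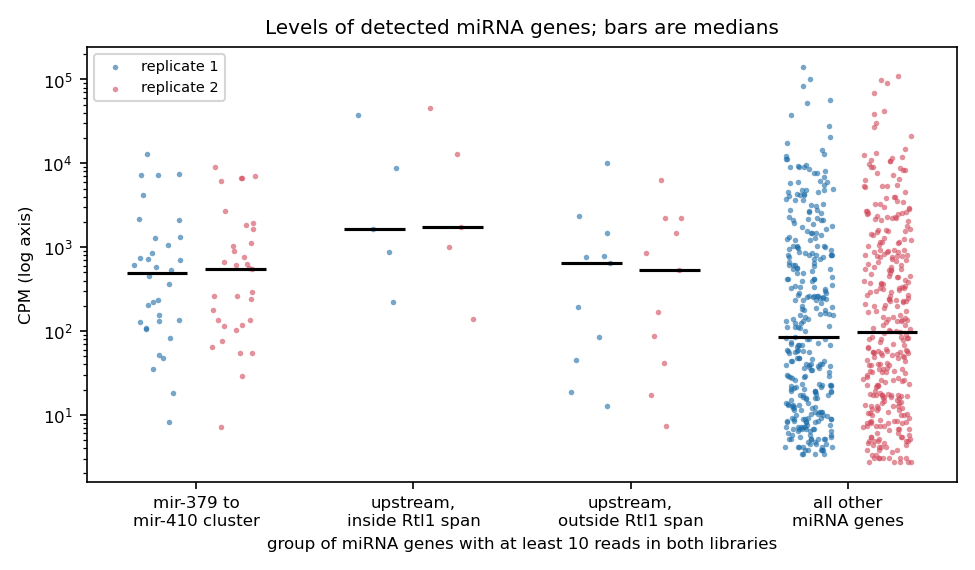
Points give the level in CPM, on a log axis, of each miRNA gene with at least 10 reads in both libraries, in replicate 1 (blue) and replicate 2 (red), and bars are medians. The cluster's medians, 495 and 550 CPM, lie between those of the genes antisense to Rtl1 (1662 and 1754) and those of all other miRNA genes. The other upstream genes had medians of 655 and 534 CPM, above the cluster in replicate 1 and below it in replicate 2.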

How the data were processed

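Total RNA gave multiplexed miRNA libraries, with inserts shorter than 30 nucleotides per the labels. The authors deposited whole-number read counts per miRNA gene, not normalized, in 3 unnamed columns per library, with mm10 and GENCODE M21 named in the deposited notes. They were taken to hold counts made regardless of strand, sense counts and antisense counts, in that order, since the middle column had the larger stranded total. The aligner is not given in the sources used here. Another 4 rows per library name no gene (69.5% and 65.3% of reads) and were left out.

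All 2202 identifiers matched GENCODE M21, which gave symbols, positions, host exons and hairpins. Mature sequences came from RefSeq. CPM used totals of sense reads, and log2 values a pseudocount of 1 CPM. The libraries are no duplicate deposit (chi-square over genes 390 times its degrees of freedom). The exact binomial test was tested on simulated counts with counting error only, which cannot show how it behaves at the spread of these libraries. Values were written out for Mir134, Mir485, Mir382, the 10 most abundant members, the first and last, those called with at least 1.5-fold, detected members of shared-seed pairs and those not detected. Others were named after their values were seen. Members and lists were chosen with earlier results of these data known. Python 3.11.15, scipy 1.17.1, Biopython 1.88, ViennaRNA 2.7.2 and R 4.3.3 were used, with edgeR 4.0.16 and DESeq2 1.42.0 for scaling of counts alone.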

Additional observations from a re-analysis of the deposited data

How the results depend on the processing

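No condition could be compared, and depth mainly limits members with few reads. The number of detected members ranged from 34 to 35 when either replicate was left out, and was 29 with counts without strand. The cluster's mean share, 5.28% to 5.43% with either replicate left out, was 6.09% when the most abundant miRNA gene was dropped from the totals and 4.02% without members that share a 20 base stretch, as both alternatives change what is summed. Members called numbered 22 to 29 over the alternative settings. Counts without strand called 22 of 30 tested members, beside 252 of all 448 genes tested. Of 35 tested members, TMM called 29 (268 of 474 genes) and DESeq2 size factors 28 (274 of 474). Totals without the most abundant gene called 27 (268 of 474), and totals of the cluster itself 28 (268 of 474). A summed count of at least 40 gave 28 of 34 (244 of 347), and no filter 27 of 37 (263 of 723). The majority direction was not fixed, with 13 higher in replicate 2 and 14 in replicate 1 when the most abundant gene was dropped. Directions over all genes were not counted for that setting. No log2 ratio of the 22 detected members chosen by the naming rule changed sign under these scalings or a pseudocount of 0.1 CPM, nor did the 19 that have reads in counts without strand. Mir134 was called higher in replicate 1 under TMM (log2 ratio -0.13, exact test with adjusted p = 0.0164) and without the most abundant gene (-0.16, 0.00156), against an adjusted p of 0.0845 in the report. No paired analysis was possible because there is 1 group.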
